A study of Mus musculus with 12 samples.

Results

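Expression of 10 genes of hepatic stellate cells and fibrillar collagen was followed over 12 mouse liver arrays. The genes were taken by symbol: Lrat, Des, Reln, Pdgfrb, Colec11, Ecm1 and Hgf as genes of quiescent stellate cells and their signalling, and Col1a1, Col1a2 and Col3a1 as genes of fibrillar collagen. They are 10 of the 30143 genes that have a probe set (the group of probes read out as 1 value) with a single symbol, or in the case of Ecm1 a symbol shared with the microRNA gene Mir7014. Each of the 10 has 1 probe set, so no choice between probe sets arose, and the Ecm1 value cannot separate Ecm1 from Mir7014. The arrays came from the livers of 12-week-old C57BL/6 males, in 3 groups of 4: F3 males with an obese Avy/a great-grandmother, F2 males with an obese Avy/a grandmother, and control males born to lean control parents. Avy is viable yellow, an agouti allele that can make its carriers obese. The generation of the controls is not stated for each array, and one label calls the descendants sons while the design text calls them grandsons and great-grandsons. Nothing in the labels says that the 4 arrays of a group came from different litters, so the p-values measure the spread between these arrays.

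Hepatic stellate cells lie between the hepatocytes and the sinusoidal endothelium and store vitamin A as retinyl ester. After liver injury they lose that store, respond to platelet-derived growth factor and transforming growth factor beta, and become the myofibroblasts that lay down the fibrillar collagen of scar tissue. A whole-liver RNA sample is dominated by hepatocytes, so the level of such a gene depends both on how many stellate cells there are and on how much RNA each one makes, and fewer cells of a type and less RNA per cell cannot be told apart here.

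Promoter sequence is shown for the genes on which the results below turn: Col1a2 and Col3a1, which moved together across arrays, and Lrat, which had the widest range. RefSeq promoter entries of build GRCm38.p6 were read for 8 of the 10 genes, and Col1a1 and Pdgfrb are named only. The 250 bases before the annotated start were searched on both strands for the TATA box (TATAAA), the CCAAT box (CCAAT) and the GC box (GGGCGG). The matches are in capitals, which show the reverse complement where the motif lies on the opposite strand; no match overlapped another. Col1a2 is shown at chr6:4505368-4505617 on the plus strand, Col3a1 at chr1:45311288-45311537 on the plus strand and Lrat at chr3:82903975-82904224 on the minus strand.
Col1a2: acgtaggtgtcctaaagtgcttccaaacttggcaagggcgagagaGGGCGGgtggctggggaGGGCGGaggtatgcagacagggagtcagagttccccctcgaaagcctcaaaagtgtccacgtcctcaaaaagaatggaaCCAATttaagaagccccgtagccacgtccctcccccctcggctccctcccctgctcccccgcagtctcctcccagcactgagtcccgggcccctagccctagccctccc
Col3a1: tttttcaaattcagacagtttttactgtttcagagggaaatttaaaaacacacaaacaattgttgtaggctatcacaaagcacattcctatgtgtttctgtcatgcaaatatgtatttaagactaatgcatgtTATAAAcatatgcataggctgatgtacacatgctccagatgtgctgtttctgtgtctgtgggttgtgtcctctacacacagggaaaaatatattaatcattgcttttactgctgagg
Lrat: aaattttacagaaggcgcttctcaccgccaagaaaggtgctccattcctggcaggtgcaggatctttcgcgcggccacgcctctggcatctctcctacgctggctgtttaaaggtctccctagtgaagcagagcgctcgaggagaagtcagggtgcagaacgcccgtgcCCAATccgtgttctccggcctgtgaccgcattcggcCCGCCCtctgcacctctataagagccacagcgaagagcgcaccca
CCAAT begins 109 bases before the start in Col1a2, which also holds GGGCGG at 205 and at 188 bases. Col3a1 holds neither of these and has TATAAA at 117 bases. In Lrat, CCAAT begins 81 bases before the start and GGGCGG lies on the opposite strand at 45 bases. Of 32851 promoter windows of the same length, 33.8% hold CCAAT, 32.7% hold GGGCGG and 12.4% hold TATAAA. The base composition of the windows also differs, with 62.0% G or C in Col1a2, 35.2% in Col3a1 and 59.2% in Lrat.

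All values below are the deposited log2 signals of the probe sets. Since probe sets differ in how they bind, no gene's level is set against another's. All 10 genes were brighter on average than most of the 5222 probe sets named as negative controls: the share of them that lay below a gene ran from 73.0% for Des to 98.2% for the Ecm1 probe set. Values of any 2 arrays correlated across all probe sets at 0.967 to 0.993. As a check of the tissue label, the 9 hepatocyte markers with a probe set of their own each lay above at least 99.06% of the negative controls, with a median of 99.9%. The median was 96.1% for 12 Kupffer cell markers and 95.4% for 14 sinusoidal endothelial markers. Other marker lists were dimmer, with medians of 80.2% for portal fibroblast, 74.55% for smooth muscle, 72.4% for cholangiocyte, 72.1% for lymphocyte and neutrophil and 69.0% for mesothelial markers. The dimmest cholangiocyte marker lay above 18.8% of the negative controls. Values of these dimmer lists below therefore lie nearer to the background. Genes with a mean log2 signal above 4.546 were tested, and markers are described below as above that filter or not.

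The arrays divide into sets that cut across the groups without holding equal shares of them. In the mean log2 signal of 955 small nucleolar RNA genes they were separated by a gap of 0.321, with 7 arrays in the higher set (F3 replicates 1, 2 and 3, F2 replicates 1 and 4, and control replicates 2 and 4) and 5 in the lower. No label accounts for the sets, and each group spans both. All F3 arrays but replicate 4 lie in the higher set, while F2 and control are split evenly. The main fit held no term for the set, so set and group are partly mixed in the F3 differences.

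No stellate or collagen gene differed between groups by limma with Benjamini-Hochberg adjustment over all 18726 genes tested. The test called 0 of the 10 in F3 against control and 0 of the 10 in F2 against control, where it called 0% of all genes tested in either comparison, with a smallest adjusted p of 0.9998 in the first and 0.9999 in the second. Before adjustment, p fell under 0.05 for 0 of the 10 genes in both, against 2.93% of all genes in F3 against control and 0.919% in F2 against control. The F3 and control arrays overlapped for all 10 genes, and so did the F2 and control arrays, where 1.63% and 0.705% of all genes showed no overlap. In F3 livers 6 of 10 genes averaged above control, where 45.3% of all genes did, and the median difference was 0.05 for the 10 genes and −0.01 for all. In F2 livers 2 of 10 averaged above control, where 43.3% of all genes did, with a median of −0.04 for the 10 genes and −0.01 for all. With the descendants of both generations averaged and set against control, the test called 0 of 10 genes and 0% of all, and p fell under 0.05 for 0 of the 10, against 1.49% of all genes. In that comparison 6 of 10 genes were above 0, where 44.4% of all genes were, and 0 of 10 had no overlap, against 0.112% of all.

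The size of change that the arrays could have missed is bounded by the intervals. For all 10 genes the 95% interval of F3 against control, and that of F2 against control, lay within a 1.5-fold change either way. The intervals reached from 0.17 on either side of the estimate for Colec11 to 0.32 for Lrat on the log2 scale. These are intervals for 1 gene at a time.

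**Figure D1:**
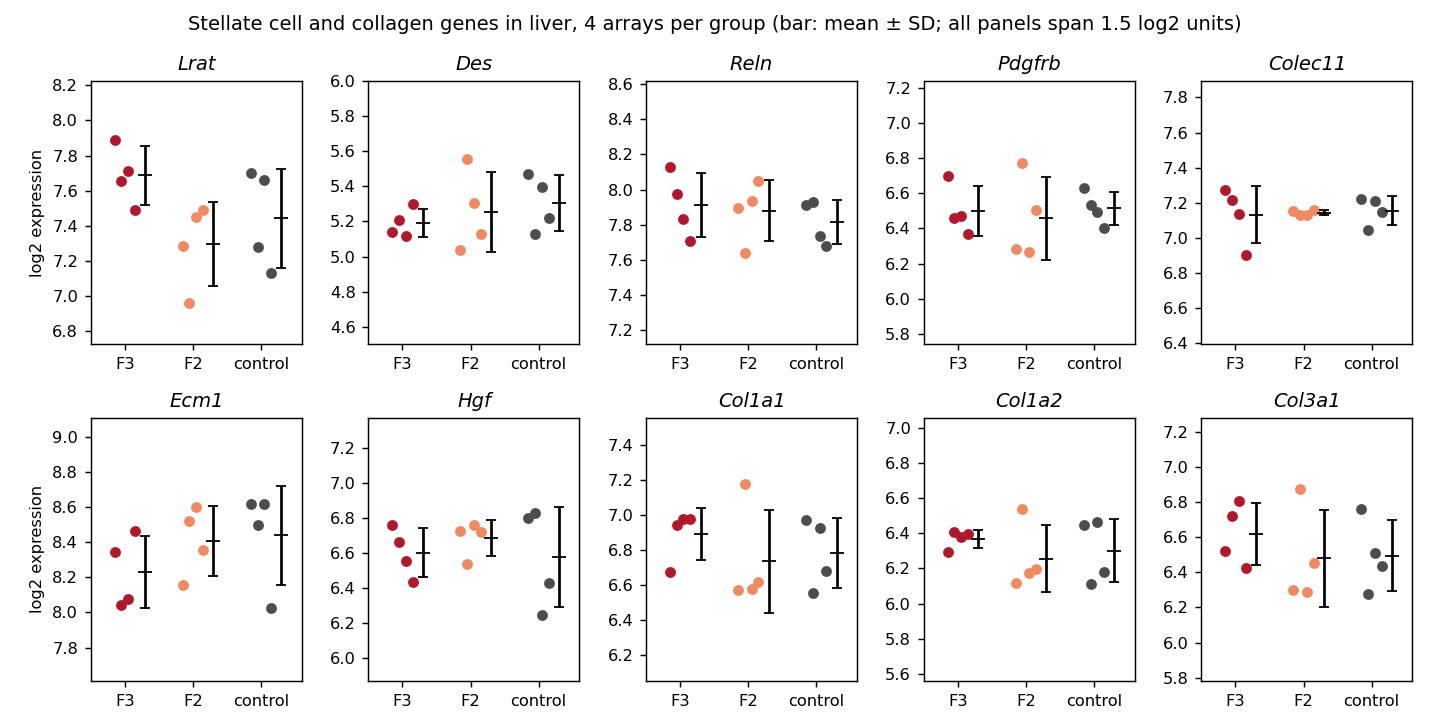
Log2 signal of each of the 10 genes (1 panel per gene, vertical axis) on the 12 arrays, grouped as F3, F2 and control along the horizontal axis, with 1 point per array and, beside the points, the group's mean ± SD (n = 4). All panels span 1.5 log2 units. The groups overlap in every panel, and F2 replicate 2 is the highest array for all 3 collagen genes.

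Lrat encodes lecithin retinol acyltransferase, the enzyme that makes the retinyl ester stored in stellate cells. Its log2 signal was 7.89, 7.66, 7.71 and 7.49 on the F3 arrays, 7.28, 6.96, 7.45 and 7.49 on the F2 arrays, and 7.70, 7.28, 7.66 and 7.13 on the control arrays. Of the F3 arrays 3 lay above every F2 array, while the other tied the highest F2 array to 2 decimals, and the control arrays spread across both. The means were 7.69 ± 0.17 in F3, 7.30 ± 0.24 in F2 and 7.44 ± 0.28 in control (SD, n = 4 each). The difference from control was 0.25 in F3 and −0.15 in F2 (SE 0.15 each; limma, adjusted p = 0.9998 and 0.9999 over all genes). With 1 array left out, the F3 value ran from 0.14 (without control replicate 4) to 0.33 (without control replicate 1). The F2 value ran from −0.25 (without control replicate 4) to −0.03 (without F2 replicate 2). Within the higher array set they were 0.55 in F3 and 0.18 in F2, and within the lower −0.19 in F3 and −0.48 in F2, so the sign of either depended on the set.

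Lrat was also the gene with the smallest p in F3 against F2. The difference was 0.39 (SE 0.15, interval 0.07 to 0.71), a 1.31-fold higher level in F3, with an unadjusted limma p of 0.0215 and an adjusted p of 0.9999 over all genes. Leaving out each array in turn gave 0.28 to 0.46. Of the 10 genes, 1 thus had an unadjusted p under 0.05 in this comparison, where 2.37% of all genes did. The adjusted test called 0 of 10 genes and 0% of all genes, and 0 of the 10 had groups that did not overlap, against 2.46% of all. In F3 against F2, 6 of 10 genes were above 0, where 51.4% of all genes were, and 9 of 10 intervals lay within a 1.5-fold change, the exception being Lrat.

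Des encodes desmin, the intermediate filament protein by which stellate cells are often identified in rodent liver, and which muscle cells also make. It gave 5.14, 5.21, 5.12 and 5.30 on the F3 arrays, 5.04, 5.55, 5.30 and 5.13 on the F2 arrays, and 5.47, 5.13, 5.40 and 5.22 on the control arrays. F3 and F2 differed from control by −0.11 and −0.05 (SE 0.11 each). Des was the 1 gene of the 10 whose values did not overlap between the array sets, where 5.71% of all genes tested showed none. The 7 arrays of the higher set lay between 5.04 and 5.22 and the 5 of the lower set between 5.30 and 5.55, a difference of −0.27. All 3 groups hold arrays from both ranges. Within the higher set the F3 difference from control was −0.02, and within the lower set, with its 1 F3 array, it was −0.14.

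Reln encodes reelin, a secreted glycoprotein that quiescent stellate cells make in the liver. Its signal was 8.13, 7.98, 7.83 and 7.71 in F3, 7.90, 7.64, 7.93 and 8.05 in F2, and 7.91, 7.93, 7.74 and 7.68 in control, with the groups overlapping through most of their range. The differences from control were 0.10 in F3 and 0.06 in F2. Colec11 encodes collectin 11, a soluble lectin that can start the lectin pathway of complement. It was the steadiest of the 10, with 7.27, 7.22, 7.14 and 6.90 in F3, 7.15, 7.13, 7.13 and 7.16 in F2, and 7.22, 7.04, 7.21 and 7.15 in control. Its spread over the 12 arrays exceeded that of 25.3% of all genes tested, against 92.7% for Lrat, and it differed from control by −0.02 in F3 and −0.01 in F2.

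Ecm1 encodes extracellular matrix protein 1, a secreted glycoprotein that binds matrix components. The probe set it shares with Mir7014 gave 8.35, 8.05, 8.07 and 8.47 in F3, 8.15, 8.52, 8.60 and 8.35 in F2, and 8.62, 8.50, 8.62 and 8.03 in control. Control replicate 4 was the lowest array of all and the other control arrays were among the highest, so the F3 difference of −0.21 (SE 0.15) went with a wide control group. That difference was −0.346 without control replicate 4 and −0.145 without F3 replicate 2, the ends of its range with 1 array left out. The array sets differed more than the groups for this probe set, with means of 8.21 in the higher set and 8.56 in the lower set and ranges of 8.03 to 8.50 and 8.47 to 8.62. Within the higher set the F3 difference from control was −0.11, and within the lower set, with its 1 F3 array, it was −0.15.

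Pdgfrb encodes the beta receptor for platelet-derived growth factor, the signal that drives stellate cells to divide. It read 6.70, 6.46, 6.47 and 6.37 in F3, 6.28, 6.77, 6.27 and 6.51 in F2, and 6.63, 6.53, 6.50 and 6.40 in control. The F2 arrays spanned both extremes of the 12, and the differences from control were −0.02 in F3 and −0.06 in F2. Hgf encodes hepatocyte growth factor, which stellate cells release and hepatocytes receive through the Met receptor. It read 6.76, 6.66, 6.55 and 6.43 in F3, 6.72, 6.53, 6.76 and 6.72 in F2, and 6.80, 6.83, 6.24 and 6.43 in control. The control arrays held both the highest and the lowest value, and the differences were 0.03 in F3 and 0.11 in F2.

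**Figure D2:**
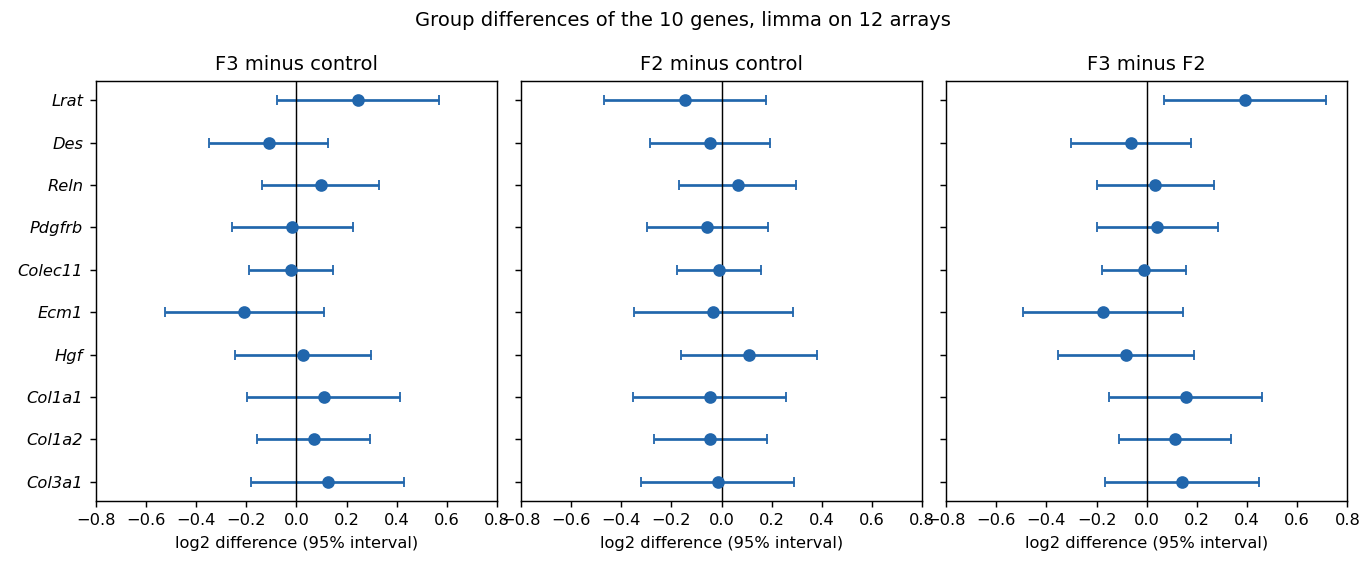
Log2 difference (horizontal axis) of each of the 10 genes (vertical axis) in 3 panels, F3 minus control, F2 minus control and F3 minus F2, with points for the limma estimates on 12 arrays and bars for 95% intervals. Every interval crosses 0 except that of Lrat in F3 minus F2, which runs from 0.07 to 0.71.

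The collagen genes averaged above control in F3 and below it in F2 by less than the spread between arrays, and the sizes hung on single arrays. Without control replicate 2 the F3 differences were 0.03 for Col1a1, 0.0056 for Col1a2 and 0.05 for Col3a1. Other arrays left out raised them, at most to 0.18 for Col1a1 (without F3 replicate 1), 0.12 for Col1a2 (without control replicate 3) and 0.21 for Col3a1 (without control replicate 1). Within the higher array set the F3 difference was 0.25 for Col1a1, 0.21 for Col1a2 and 0.33 for Col3a1. Within the lower array set, with its 1 F3 array, it was 0.03 for Col1a1, −0.06 for Col1a2 and −0.21 for Col3a1. Col1a1 and Col1a2 encode the chains of type I collagen, the main fibre of scar tissue, and Col3a1 encodes the chain of type III collagen, which is laid down with it. Col1a1 gave 6.67, 6.94, 6.98 and 6.98 in F3, 6.57, 7.17, 6.58 and 6.62 in F2, and 6.97, 6.56, 6.92 and 6.68 in control. Within F3 the first array lay well under the other 3, and within F2 the second lay far over its group. Col1a1 differed from control by 0.11 in F3 and by −0.05 in F2 (SE 0.14 each), and the F2 difference was −0.19 without F2 replicate 2.

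Col1a2 followed the same arrays. It gave 6.29, 6.41, 6.38 and 6.40 in F3, 6.11, 6.54, 6.17 and 6.20 in F2, and 6.45, 6.11, 6.46 and 6.18 in control. F2 replicate 2 was again the highest array, and control replicate 2 the lowest for all 3 collagen genes. The differences from control were 0.07 in F3 and −0.04 in F2. Col3a1 gave 6.52, 6.72, 6.81 and 6.42 in F3, 6.30, 6.88, 6.29 and 6.45 in F2, and 6.76, 6.28, 6.51 and 6.44 in control. Its differences were 0.12 in F3 and −0.02 in F2, and 0.14 in F3 against F2 (SE 0.14 each).

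What the collagen genes shared was their course over the 12 arrays. Col1a1 and Col1a2 correlated at r = 0.96 (n = 12, permutation p = 4e-05, adjusted 0.0018 over the 45 pairs among the 10 genes; rho = 0.85, p = 0.00083, adjusted 0.0373). Col1a1 and Col3a1 reached r = 0.85 (permutation p = 0.00048, adjusted 0.0108; rho = 0.76, p = 0.00578, adjusted 0.0867). Col1a2 and Col3a1 reached r = 0.83 (permutation p = 0.0015, adjusted 0.0225; rho = 0.80, p = 0.00266, adjusted 0.0598). So the 3 collagen pairs passed by Pearson's r, and by Spearman's rho after adjustment Col1a1 with Col1a2 alone did. Without the 2 arrays farthest from the median of the pair's first-named gene the values were 0.94, 0.76 and 0.75. Within the higher array set they were 0.93, 0.97 and 0.97 (n = 7). The arrays left out were control replicate 2 and F2 replicate 2 for the pairs with Col1a1. For Col1a2 with Col3a1 they were F2 replicate 1 and control replicate 2, so the 0.75 still holds F2 replicate 2. No value is given for the lower set, whose 5 arrays fall under the minimum of 6 used here for a correlation. All genes of an array share its RNA extract and labelling, so these values describe how the arrays varied.

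No pair outside the collagens passed that test. Of the 21 pairs of a collagen gene with one of the other 7 genes, 0 had an adjusted permutation p under 0.05 by Pearson's r, and r ran from −0.54 to 0.74 with a median of 0.12. Of the 21 pairs among those 7 genes, 0 passed, with r from −0.53 to 0.75 and a median of 0.08. A raw p under 0.05 was found in 3 pairs of each kind. Reln with Hgf had r = 0.75 (n = 12, permutation p = 0.00507, adjusted 0.0544; rho = 0.66, p = 0.0222, adjusted 0.176), and r was 0.75 without the 2 farthest arrays. Des with Col1a2 had r = 0.74 (permutation p = 0.00605, adjusted 0.0544; rho = 0.69, p = 0.0157, adjusted 0.176), which was 0.56 without the 2 farthest arrays and 0.44 within the higher array set.

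The value for Lrat with Col1a1 rested on a few arrays. Over the 12 arrays r was 0.04 (permutation p = 0.910, adjusted 0.952; rho = 0.17, p = 0.605, adjusted 0.801), with any 1 array left out it lay between −0.05 and 0.55, and without F3 replicate 1 and F2 replicate 2, the farthest from the median in Lrat, it was 0.77. Its size and sign are therefore not settled by 12 arrays. Those 2 arrays hold the highest and the lowest Lrat signal of the 12. Lrat with Reln had r = 0.59 over 12 arrays (permutation p = 0.0423, adjusted 0.211; rho = 0.50, p = 0.105, adjusted 0.357) and 0.19 without the same 2 arrays. With any 1 array left out it lay between 0.44 and 0.70, and within the higher array set, which holds F3 replicate 1 but not F2 replicate 2, it was 0.67 (n = 7).

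**Figure D3:**
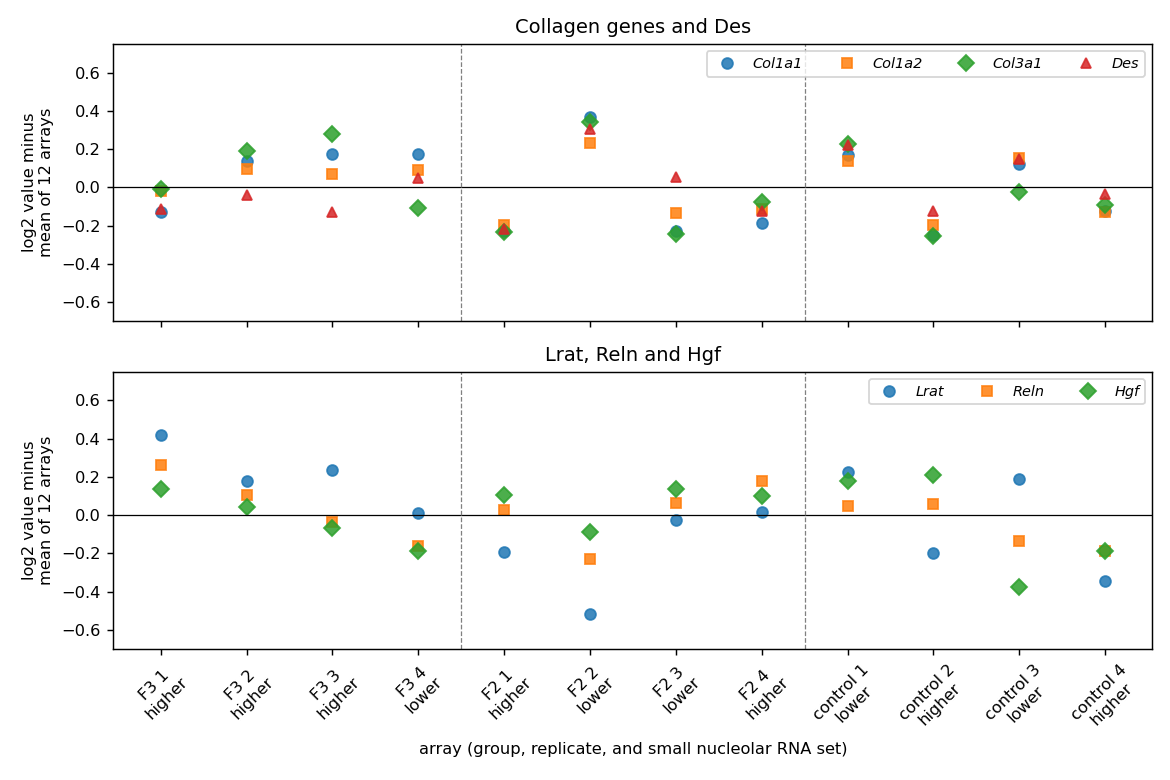
Distance of each log2 value from its gene's 12-array mean (vertical axis) for Col1a1, Col1a2, Col3a1 and Des in the upper panel and Lrat, Reln and Hgf in the lower, on each array (horizontal axis, F3, F2 and control, with the array set named under each). The collagen points sit close together on most arrays and are highest on F2 replicate 2, where Lrat and Reln are at their lowest.

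**Figure D4:**
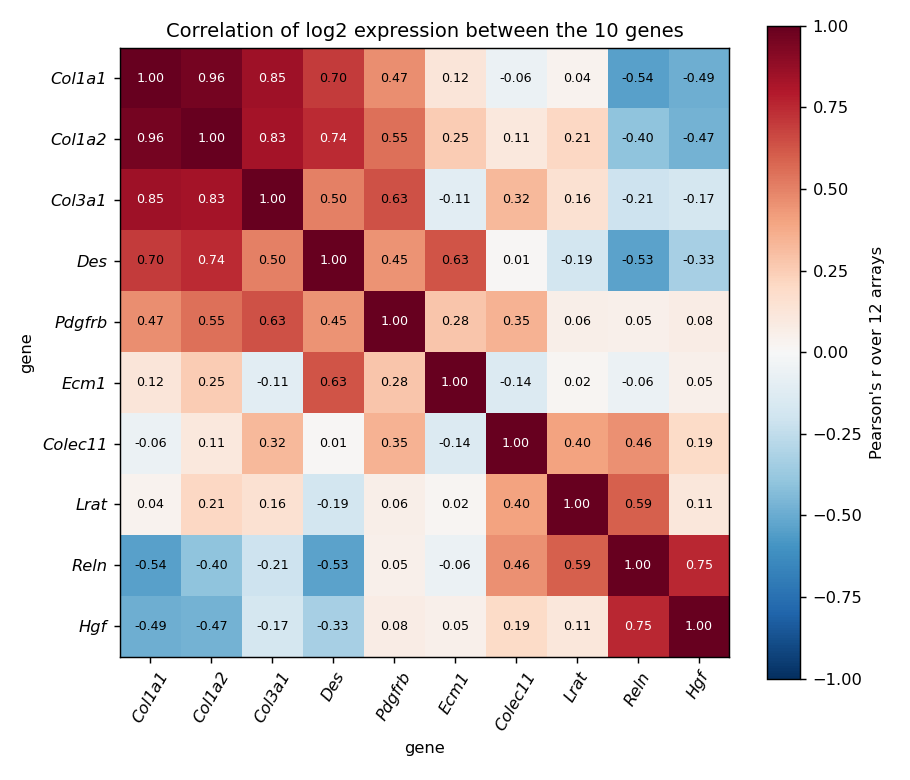
Pearson's r over the 12 arrays between the log2 values of each pair of the 10 genes, with the genes in the same order on both axes and r written in each square and shown by colour. The 3 collagen genes form the block of high values at the upper left (0.83 to 0.96), and Reln with Hgf stands at the lower right (0.75).

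Over all genes tested, the likeness to Col1a1 was ranked by Pearson's r over the same 12 arrays, as a description. Of 18725 other genes Col1a2 was the most alike and Col3a1 stood at rank 30. Apart from them the 5 protein-coding genes most like Col1a1 were Col6a1 (0.93), Creb3l1 (0.93), Ang4 (0.92), Col6a2 (0.92) and Mrgbp (0.91). Col6a1 and Col6a2 encode chains of type VI collagen, Creb3l1 a membrane-bound transcription factor, Ang4 a ribonuclease of the angiogenin family, and Mrgbp a subunit of a chromatin complex. Des ranked 632 and Reln 17091 in the same order. For Lrat the 5 were Akr1c6 (0.78), Fggy (0.77), Abca8a (0.76), Nr3c1 (0.76) and Nox4 (0.76). All 5 were lowest on F2 replicate 2 and highest on F3 replicate 1, the arrays that hold the extremes of Lrat. Their likeness without those arrays was not examined. Akr1c6 encodes a steroid-metabolising reductase, Fggy a carbohydrate kinase, Abca8a a membrane transporter, Nr3c1 the glucocorticoid receptor and Nox4 an NADPH oxidase. Reln ranked 161 in likeness to Lrat.

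On each array the 3 collagen genes were summarised as the median of their deviations from their own 12-array means. F2 replicate 2 stood highest at 0.34, and control replicate 2 lowest at −0.25. In F3 the values were −0.02, 0.14, 0.17 and 0.09, in F2 −0.23, 0.34, −0.23 and −0.11, and in control 0.17, −0.25, 0.12 and −0.12. The F2 group was thus 3 arrays below their mean and 1 far above it. Of the 8 marker lists of liver cells, F2 replicate 2 was also the highest array for 2: the median deviation there was 0.45 for 12 of 12 Kupffer cell (liver macrophage) markers and 0.36 for the 8 of 13 lymphocyte and neutrophil markers above the filter. Control replicate 3 was highest for the cholangiocyte, portal fibroblast, smooth muscle and mesothelial markers, control replicate 2 for the sinusoidal endothelial markers and F2 replicate 1 for the hepatocyte markers. Among 19 other collagen and matrix genes F2 replicate 2 was highest, at 0.18. It was also narrowly highest for 14 genes of collagen processing and cross-linking (0.12, against 0.11 on control replicate 1). The same held for 25 other stellate cell genes (0.064, against 0.059 on control replicate 3). For 12 activated myofibroblast genes control replicate 1 was highest (0.10, against 0.08 on F2 replicate 2). The summed linear signal of the Kupffer cell markers ranged from 2094 to 3161 in F3, from 2352 to 3876 in F2 and from 2401 to 3107 in control, and the F2 maximum was that same array. For the portal fibroblast markers, 9 of 10 above the filter, the sums ranged from 584 to 676 in F3, from 586 to 911 in F2 and from 595 to 676 in control. Their F2 maximum was again F2 replicate 2, where their median deviation was 0.16, against 0.17 on control replicate 3. Gas6, a gene of that list, reached 8.80 among the F2 arrays, against at most 7.78 in F3 and 8.14 in control. Among lymphocyte and neutrophil markers, with sums of 311 to 354 in F3, 300 to 412 in F2 and 292 to 364 in control, the lymphocyte genes Ms4a1, Cd3g and Cd8a were among those not above the filter. The part these cells have in the collagen values was not tested.

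**Figure D5:**
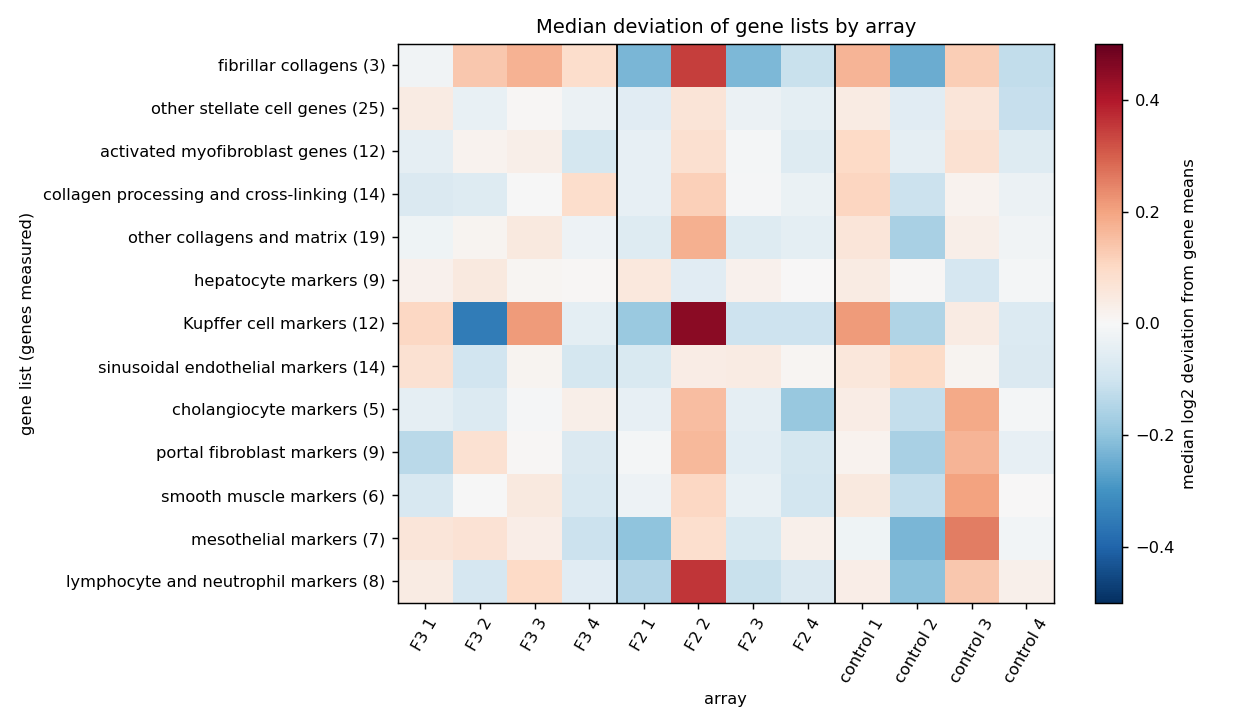
Median deviation (log2, from each gene's mean over 12 arrays, shown by colour) of the fibrillar collagens and 12 other gene lists (rows, with the number of genes measured) on each array (columns, F3, F2 and control). F2 replicate 2 is the column with the highest fibrillar collagen value (0.34) and the highest Kupffer cell marker value (0.45).

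Around the 10 genes, 19 lists of related genes were read for the pathways and cell types they belong to. Of 251 genes listed, 213 were tested, and limma with adjustment over all genes called 0 of them in any comparison. Before adjustment, p was under 0.05 for 3 of the 213 genes in F3 against control, or 1.41%, below the 2.93% of all genes, so the list genes held no excess of low p. They were Lum, encoding the collagen-binding proteoglycan lumican, Fcna, encoding a ficolin of the lectin pathway, and Stab1, a sinusoidal endothelial marker. The differences were 0.26, −0.21 and −0.15. In F2 against control, 0 of 213 had such a p, against 0.919% of all genes. In F3 against F2 there were 3 (Gdf2, Stab1 and Pdgfa, named after their values were seen), or 1.41% against 2.37% of all.

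No gene of the activated myofibroblast list had an unadjusted p under 0.05 in F3 or F2 against control. In F3 2 of 12 averaged above control, where 45.3% of all genes did, with a median difference of −0.07, and in F2 2 of 12, where 43.3% of all did, with a median of −0.03. The median over all genes was −0.01 in either comparison. F3 and F2 are set against the same control arrays, so the 2 counts are not independent. The genes with the lowest p were Ccn2 (also called Ctgf, a matricellular protein induced by transforming growth factor beta) at −0.12 and Tgfb1 at −0.08 in F3, and the smooth muscle genes Cnn1 at −0.12 and Myl9 at −0.12 in F2 (SE 0.07 to 0.10). Within the higher array set Ccn2 in F3 and Cnn1 in F2 had the opposite sign, 0.011 and 0.0097. In the transforming growth factor beta pathway 7 of 18 genes averaged above control in F3 (median −0.06), where 45.3% of all genes did. In F2 2 of 18 did (median −0.03), where 43.3% of all genes did. Id1, a target of the pathway, differed by −0.36 in F3 (SE 0.17), beside a wide control group. Its control arrays ran from 6.30 to 7.24 about a mean of 6.55 (SD 0.46), and its F3 arrays from 6.08 to 6.35 (SD 0.12). The receptor gene Tgfbr2 differed by −0.21 in F2 (SE 0.13). The adjusted test called none of these.

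The collagen machinery and the wider matrix gave differences of either sign, none of them called. Over all genes tested, 45.3% averaged above control in F3 and 43.3% in F2. Among 14 genes of collagen processing and cross-linking, 6 averaged above control in F3 and 8 in F2. P4ha1, a subunit of the prolyl hydroxylase that stabilises the collagen helix, had the most negative difference among 21 partner genes tested, −0.52 in F3 (SE 0.24), and the proteoglycan gene Dcn stood at 0.23 (SE 0.11). Among 19 other collagen and matrix genes, 12 averaged above control in F3 and 10 in F2, with medians of 0.03 and 0.00. Among 11 genes of matrix degradation the medians were −0.03 and 0.01, and Mmp19 in F3 (−0.23, SE 0.12) and Mmp2 in F2 (−0.12, SE 0.07) had the lowest p.

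Partners of the individual genes did not pass the test either. The 21 partners, among them the growth factor genes Pdgfb and Pdgfd for Pdgfrb, Met and Hgfac for Hgf, Colec10 and Masp1 for Colec11 and Rbp4 and Dgat1 for the retinoid store of Lrat, had a median difference of −0.04 in F3 and −0.03 in F2. In F2 their differences ran from −0.18 for Acta2, the smooth muscle actin of activated cells, to 0.12 for Met, the hepatocyte growth factor receptor. In F3 they ran from P4ha1 to Lum. Vldlr and Dab1, a reelin receptor and its adaptor, and the matrix genes Lox and Mmp13 were not above the filter. In the retinoid list, which includes Lrat, 9 of 21 genes averaged above control in F3 and 5 of 21 in F2, against 45.3% and 43.3% of all genes. Aldh1a1, which oxidises retinal to retinoic acid, had −0.32 in F3 and −0.23 in F2 (SE 0.16 each), and Rarb, a retinoic acid receptor, was lower on every F2 array than on any control array (−0.13, SE 0.06), 1 of 213 list genes without overlap there, against 0.705% of all genes. In the lectin pathway, Mbl1, a mannose-binding lectin, stood at 0.23 in F3 and 0.34 in F2 (SE 0.16 each).

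The lists around the receptors and ligands held differences close to those of all genes, of which 45.3% averaged above control in F3 and 43.3% in F2. Of 25 other stellate cell genes 14 averaged above control in F3 and 15 in F2, with a median of 0.02 in both. Lum and Dcn had the lowest p there in F3, and in F2 Nes, encoding the filament protein nestin, at −0.16 (SE 0.08) and Angptl6, encoding an angiopoietin-like secreted protein, at −0.13 (SE 0.08). In the platelet-derived growth factor list, 6 of 11 genes were above control in F3 and 7 of 11 in F2. Pik3r1, a regulatory subunit of the kinase that the receptor recruits, stood at 0.16 in both F3 and F2 (SE 0.11 each), and the ligand gene Pdgfa at −0.12 in F2 (SE 0.08). In the hepatocyte growth factor list, 4 of 11 were above control in F3 and 6 of 11 in F2. Gab1, the adaptor that docks on the Met receptor, stood at −0.13 in F3 (SE 0.10) and Plau, encoding the urokinase protease, at −0.06 (SE 0.09). In the reelin list, 3 of 7 were above control in F3 and 5 of 7 in F2, with Pafah1b1 at 0.08 in F3 (SE 0.08) and Crkl, a signalling adaptor, at −0.08 in F2 (SE 0.10). In the wider matrix, Hspg2, encoding perlecan, stood at −0.10 in F3 (SE 0.06) and Fn1, encoding fibronectin, at 0.14 in F2 (SE 0.10).

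Markers of other liver cells gave no called gene. The counts below stand beside 45.3% of all genes above control in F3 and 43.3% in F2. Above control were 6 of 9 hepatocyte markers in F3 and 6 of 9 in F2, 4 of 12 Kupffer cell markers in F3 and 8 of 12 in F2, and 6 of 14 sinusoidal endothelial markers in either. Of cells that also make collagen, 3 of 9 portal fibroblast markers were above control in F3 and 4 of 9 in F2, 0 of 6 smooth muscle markers in F3 and 1 of 6 in F2, and 5 of 7 mesothelial markers in F3 and 1 of 7 in F2. Of cholangiocyte (bile duct cell) markers 1 of 5 stood above control in F3 and 3 of 5 in F2, and of lymphocyte and neutrophil markers 2 of 8 in F3 and 4 of 8 in F2. The smooth muscle list had the most negative medians of these marker lists, −0.06 in F3 and −0.08 in F2, beside the values of the myofibroblast genes, with which it shares genes such as Cnn1. Its summed linear signal, over 6 of 7 markers above the filter, ranged from 318 to 344 in F3, from 313 to 355 in F2 and from 311 to 371 in control. Its part in those values was not tested.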

How the data were processed

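Total RNA from 12 livers was labelled with biotin using an Affymetrix kit for whole-transcript arrays, per the labels' protocols. The deposited values are log2 signals per probe set. The submitters' processing notes name Affymetrix Expression Console, whose version was not given in the sources used here; neither was its summary method or any genome build. The values lay between 0.73 and 13.6. Of 72688 probe sets, 30604 carried 1 gene symbol, 2146 several and 39938 none; those with 1 symbol gave 30143 genes, each read from its brightest probe set, and the Ecm1 probe set, which also names Mir7014, was kept.

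The log2 values were tested as deposited with limma 3.58.1 in R 4.3.3, over all 12 arrays with 1 mean per group, on 18726 genes whose mean was above 4.546 (the median probe set). P-values were adjusted by Benjamini-Hochberg over these genes, with a threshold of 0.05. Correlations were tested with 100000 permutations, two-sided. The fit was tested on simulated data. The number of arrays limits the precision. All 10 genes, fixed partner genes, genes among the 2 of lowest p per list and the 5 genes most like Col1a1 and Lrat were named. The members and lists were chosen with earlier results of these data known. Alternatives covered normalization, filter, probe sets, variance model, threshold, arrays in the fit, replicate block, array sets and each array left out; correlations of deviations from group and array set means were added after seeing the data. Same-numbered arrays of different groups correlated in their deviations at −0.506 to 0.322, so the numbers were not taken to pair them.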

Additional observations from a re-analysis of the deposited data

Results flagged for a closer look

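Of 30 groups of 4 arrays examined (10 genes in 3 groups), 2 held an array far from the other 3, both for Col1a1, by Dixon's ratio of the gap to the range (critical value 0.829). About 1 in 20 groups does so by chance. In F3, replicate 1 had a log2 signal of 6.67, where the nearest other array had 6.94 and the ratio was 0.875. In F2, replicate 2 had 7.17, where the nearest other array had 6.62 and the ratio was 0.928. F2 replicate 2 was also the highest array for Col1a2 and Col3a1. The median deviations of Kupffer cell markers and of lymphocyte and neutrophil markers were also highest on F2 replicate 2. For portal fibroblast markers the summed signal was highest there, but the median deviation (0.16) was below that of control replicate 3 (0.17). The part of these cells was not tested.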

How the results depend on the processing

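Under every alternative run, limma called 0 of the 10 genes in any of the 4 comparisons (946 values in all). Of the 40 differences of these genes, 22 turned sign when some single array was left out and 23 under another setting; none of them was called to begin with, and the causes were not tested. The count of all genes called was 0 under each alternative except within the lower array set, which holds 1 F3 array assumed to vary like the other groups: 2 genes in F3 minus control, 3 in F3 minus F2 and 1 in F2 and F3 averaged minus control. Each replicate number holds 1 array of every group, so a replicate block could not change the differences (Lrat in F3 minus F2 0.39). The block called 0 genes. It changed no call; the numbers share only a name.

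Within the lower array set these log2 differences had the opposite sign to the main value. In F3 minus control they were −0.19 for Lrat, −0.12 for Reln, −0.087 for Hgf, −0.058 for Col1a2, −0.21 for Col3a1 and −0.088 for Col6a3. In F2 minus control Reln had −0.04. In F3 minus F2 they were −0.075 for Reln, −0.15 for Pdgfrb and −0.16 for Col3a1. In F2 and F3 averaged minus control they were −0.33 for Lrat, −0.078 for Reln, −0.022 for Col1a1, −0.078 for Col1a2 and −0.13 for Col3a1. Within the higher array set, F3 minus control turned to 0.073 for Pdgfrb, 0.11 for Colec11, 0.011 for Ccn2, 0.069 for Plau and −0.032 for Pafah1b1. There F2 minus control turned to 0.18 for Lrat, 0.061 for Colec11, 0.0094 for Col1a2, 0.0201 for Col3a1, 0.011 for Angptl6, 0.0097 for Cnn1, 0.055 for Mmp9 and −0.0029 for Pafah1b1. F3 minus F2 turned to 0.074 for Des and 0.051 for Colec11, and the mean of both minus control to 0.086 for Colec11. With the array set as a block, F3 minus control of Hgf was −0.00625, and F3 minus F2 was 0.0013 for Des and −0.00034 for Reln. With arrays centred on their medians, F2 minus control was 0.0052 for Colec11 and 0.000504 for Col3a1.

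Leaving out 1 array at a time gave ranges that crossed 0 as follows. In F3 minus control they were −0.084 to 0.026 for Pdgfrb, −0.071 to 0.052 for Colec11 and −0.085 to 0.11 for Hgf. In F2 minus control they were −0.15 to 0.026 for Des, −0.16 to 0.0056 for Pdgfrb, −0.049 to 0.0103 for Colec11, −0.17 to 0.051 for Ecm1, −0.0027 to 0.19 for Hgf, −0.19 to 0.016 for Col1a1, −0.14 to 0.0095 for Col1a2, −0.15 to 0.072 for Col3a1 and −0.028 to 0.083 for Pafah1b1. In F3 minus F2 they were −0.14 to 0.036 for Des, −0.047 to 0.10 for Reln, −0.026 to 0.15 for Pdgfrb and −0.059 to 0.064 for Colec11. In F2 and F3 averaged minus control they were −0.055 to 0.14 for Lrat, −0.0904 to 6.9e-05 for Pdgfrb, −0.055 to 0.0204 for Colec11, −0.044 to 0.15 for Hgf, −0.045 to 0.094 for Col1a1, −0.051 to 0.066 for Col1a2 and −0.019 to 0.14 for Col3a1. The correlation of Lrat with Col1a1 was −0.22 for deviations from group means, and ran from −0.054 to 0.55 with 1 array left out.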
